A study of Homo sapiens with 2 samples.

Results

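The eIF2 control genes described here are the 4 kinases of eIF2-alpha (EIF2AK1 to EIF2AK4), the GCN2 coactivator GCN1, the phosphatase regulators PPP1R15A and PPP1R15B, and the 3 subunits of eIF2 (EIF2S1, EIF2S2 and EIF2S3). These 10 genes were taken by symbol from 28130 genes with a value in both deposited tables, and all 10 passed the filter of a mean of at least 1 CPM (scaled counts) over both libraries. Poly-A RNA came from HEK293T, a human embryonic kidney cell line, and gave 1 library per group. Cells of one group were reverse transfected with 500 nM of an RNA mimetic of tRF-3004b, a fragment cut from a transfer RNA, and cells of the other with 500 nM of the non-targeting RNA GL2. Both groups were collected 120 h after transfection and differ, per the labels, in no other agent or allele. With 1 library per group there is no spread between replicates and no test: every value compares 2 single libraries rather than 2 conditions, and each 95% interval covers counting error only.

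eIF2 carries the initiator methionyl-tRNA to the ribosome with GTP. Phosphorylation of its alpha subunit blocks the exchange factor eIF2B, which lowers protein synthesis in general and raises the translation of a few messages such as that of ATF4. Each kinase answers another stress: EIF2AK1 (HRI) haem shortage and mitochondrial stress, EIF2AK2 (PKR) double-stranded RNA, EIF2AK3 (PERK) unfolded protein in the endoplasmic reticulum, and EIF2AK4 (GCN2) uncharged tRNA and stalled ribosomes. PPP1R15A (GADD34, stress-induced) and PPP1R15B (CReP, constitutive) direct protein phosphatase 1 to remove the phosphate. RNA levels do not measure phosphorylation of eIF2, which was not analysed here.

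Depth differed 10.8-fold, with 19609933 estimated counts for the control and 1809193 for tRF-3004b. All 7 HEK293T markers were detected in both libraries. Their sums were 1891 CPM (control) and 1421 CPM (tRF-3004b). The summed CPM of each list of markers of other cells was higher in the tRF-3004b library. The 8 fibroblast markers summed to 36.3 and 117 CPM. The 6 epithelial markers summed to 10.6 and 39.4 CPM, and the 5 blood markers to 3.26 and 29.8 CPM. Such a sum can rest on few genes, and single markers were not compared. KRT5 was the one marker of these lists at 0 counts, in both libraries. The part of other cells in the results below was not tested, and in bulk RNA fewer cells of a type and less RNA per cell cannot be told apart. Transcript length moved with the ratio over all genes: the median log2 ratio (tRF-3004b over control) was 0.63 in the shortest of 10 equal length bins of the 13752 genes tested and -0.44 in the longest. The ratios of the 10 genes are therefore also given less the median of their own length bin.

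The subunits of eIF2 went in different directions. EIF2S1, the alpha subunit that the kinases phosphorylate, and EIF2S2, the beta subunit, had higher scaled counts in the tRF-3004b library (EIF2S2 not in TPM), while EIF2S3, the gamma subunit that binds GTP and the initiator tRNA, was lower. As a level in TPM (an abundance per transcript length, scaled to a fixed library total), EIF2S1 stood at 82.4 in the control and 108 in the tRF-3004b library. EIF2S2 stood at 344 and 339 TPM. EIF2S3 stood at 544 and 271 TPM. The gamma subunit was thus the most abundant of the 10 transcripts in the control library, and the beta subunit in the tRF-3004b library.

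For EIF2S1 (chromosome 14, 67360328 to 67386516, GRCh38) the counts were 2978 and 440, a log2 ratio of 0.73 (95% interval 0.58 to 0.87) which placed it at percentile 82.1 of all genes tested. This was the highest ratio of the 10 genes. For EIF2S2 (chromosome 20, 34088309 to 34112243) the counts were 7486 and 832, a log2 ratio of 0.32 (interval 0.21 to 0.42), but gene TPM with 1 added gave -0.02, so its direction depended on the unit. For EIF2S3 (chromosome X, 24054956 to 24078810) the counts were 16263 and 914, a log2 ratio of -0.66 (interval -0.76 to -0.57), which is percentile 23.5. The intervals of the 3 subunits do not overlap. Less the median of the length bin, the log2 ratios were 0.97 for EIF2S1, 0.29 for EIF2S2 and -0.52 for EIF2S3, in the same order.

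The balance between subunits does not depend on how the libraries are scaled, since the scaling cancels. There was 0.151 TPM of EIF2S1 for each TPM of EIF2S3 in the control and 0.398 in the tRF-3004b library. In counts the ratio of EIF2S1 to EIF2S3 was 2.63-fold higher in the tRF-3004b library (95% interval 2.33 to 2.97, exact conditional odds ratio). The ratio of EIF2S2 to EIF2S3 was 1.98-fold higher (interval 1.79 to 2.18) and that of EIF2S1 to EIF2S2 1.33-fold higher (interval 1.17 to 1.51). EIF2S3 made up 56.1% of the summed eIF2 TPM in the control and 37.7% in the tRF-3004b library, and EIF2S1 8.49% and 15%. Of all 45 pairs among the 10 genes, 25 had an interval away from an unchanged ratio, with no adjustment for the number of pairs. Each gene is in several of these pairs. The share over pairs of all genes tested was not computed, so whether 25 of 45 is unusual is not known. Among single genes tested, 28.6% had an interval below 0 and 23.3% above 0.

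**Figure D1:**
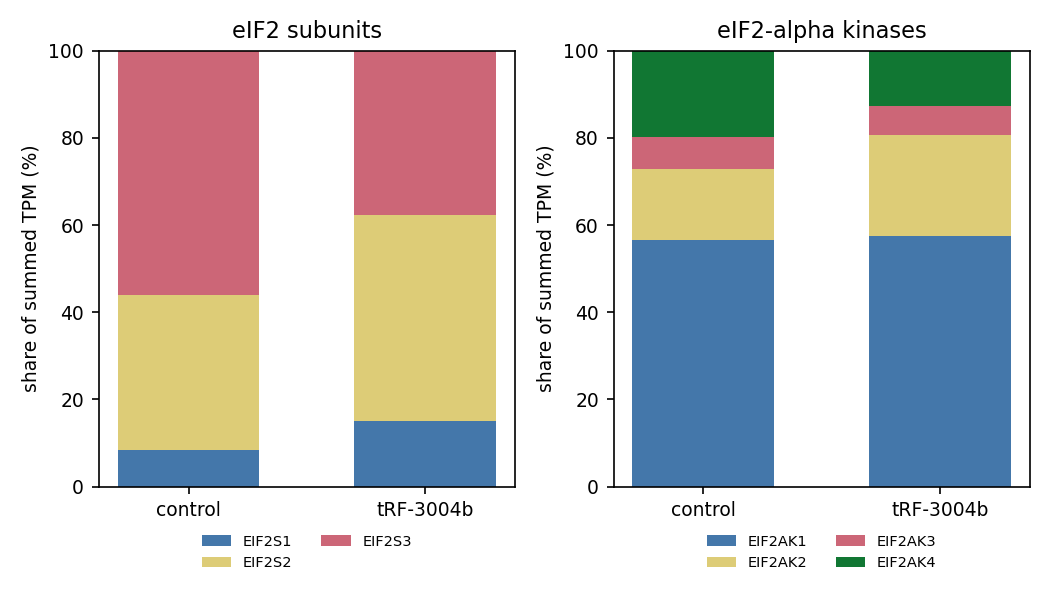
Share of each subunit in the summed TPM of eIF2 (left) and of each kinase in the summed TPM of the 4 kinases (right), in percent, with 1 bar per library. EIF2S3 takes 56.1% of the control bar and 37.7% of the tRF-3004b bar, and EIF2AK4 takes 19.7% and 12.7% of the kinase bars.

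Sequence shared with other genes bears on EIF2S2 and EIF2S3. The retrogene EIF2S3B holds 30.9% of the 31-base words of EIF2S3, but had only 3 counts in the control and 0 in the tRF-3004b library, and the 2 genes summed gave a log2 ratio of -0.67. EIF2S2 shares 29.2% of its words with 7 other genes in GENCODE, led by the pseudogene EIF2S2P4. None of the 7 has an entry in the tables, and whether reads from them were counted as EIF2S2 was not tested. EIF2S1 overlaps exons of ATP6V1D on the opposite strand over 269 bases. ATP6V1D itself had a log2 ratio of 0.77, and whether strand was used in counting is not given in the sources used here.

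A small RNA loaded into an Argonaute protein pairs with messages through its seed, bases 2 to 8 from its 5′ end. The transfected RNAs are shown because the sites below are defined by these letters, with the seed in capitals:
tRF-3004b mimetic: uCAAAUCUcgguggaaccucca
control RNA: cGUACGCGgaauacuucgauu

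The heptamer complementary to the seed of the tRF-3004b mimetic, AGATTTG as DNA, was present in the 3′ UTR of 2 of the 10 genes. It was present in 14.9% of the 12216 3′ UTRs searched, taken from GENCODE 29. Both genes are eIF2 subunits, and both had a log2 ratio above 0 in scaled counts (EIF2S2 not in TPM). The 25 bases around each site follow, with the heptamer in capitals:
EIF2S1 3′ UTR, chr14:67383755-67383779, + strand: ttcaatgcctcacgAGATTTGccag
EIF2S2 3′ UTR, chr20:34089164-34089188, - strand: gggaatgactccatAGATTTGaatt

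The site of EIF2S2 is followed by an A and that of EIF2S1 is not. EIF2S3, the subunit with the lower ratio, had no such heptamer in its 3′ UTR or its coding sequence. Coding sequences held the heptamer in 3 of the 10 genes, against 12.9% of all coding sequences searched. They are EIF2S1 again and the kinases EIF2AK2 and EIF2AK4, shown with the heptamer in capitals:
EIF2S1 coding sequence, chr14:67380669-67380693, + strand: attttggatagtttAGATTTGaatg
EIF2AK4 coding sequence, chr15:40016523-40016547, + strand: attgaacagaagggAGATTTGcaag
EIF2AK2 coding sequence, across an exon junction: gatctttggcacccAGATTTGacct

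EIF2S1 and EIF2AK4 both hold the heptamer in the coding sequence and had the highest and the lowest log2 ratio of the 10 genes. Ratios of genes with and without the heptamer were not compared, and whether a site bears on any ratio was not tested. A match of letters is a description and not a measured site. The heptamer complementary to the seed of the control RNA was in no 3′ UTR or coding sequence of the 10 genes, and in 0.229% of all 3′ UTRs searched. For EIF2AK2 the search covered 2130 bases of 3′ UTR, while its most abundant RefSeq isoform is 9975 bases long in all. For EIF2S3 the searched GENCODE transcript has 2858 bases and the RefSeq transcript 3457.

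All 4 kinases had a log2 ratio below 0 in scaled counts, beside 55.5% of all genes tested, with EIF2AK4 the lowest. The interval of EIF2AK3 held 0. In TPM all 4 were also below 0, but there the median of all genes was itself -0.38. Once the median of the length bin was taken off, EIF2AK2 was at 0.14 and EIF2AK1 at -0.00. Summed over the 4 kinases there were 10445 and 715 counts, for a log2 ratio of -0.38 (interval -0.49 to -0.27). The summed level was 220 and 144 TPM. For each TPM of eIF2 subunits there was 0.226 TPM of kinases in the control and 0.2 in the tRF-3004b library. The median log2 ratio of the 4 kinases was -0.36, beside -0.11 over all genes tested, and -0.09 less the length bins.

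EIF2AK4, the sensor of uncharged tRNA (chromosome 15, 39934115 to 40035591), was counted 2101 times in the control and 100 times with tRF-3004b. Its level was 43.2 and 18.2 TPM. The log2 ratio was -0.90 (interval -1.21 to -0.61) and ranked at percentile 16.4 of all genes tested, and less its length bin it was -0.58 (interval -0.89 to -0.29). EIF2AK4 was also lower relative to other kinases. The ratio of EIF2AK1 to EIF2AK4 counts was 1.58-fold higher in the tRF-3004b library (interval 1.26 to 2.01), and that of EIF2AK2 to EIF2AK4 1.52-fold higher (interval 1.19 to 1.97). For EIF2AK3 over EIF2AK4 the interval, 0.931 to 2.06, held an unchanged ratio.

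GCN1, the ribosome-bound coactivator that EIF2AK4 needs to respond to uncharged tRNA (chromosome 12, 120127202 to 120194715), did not follow EIF2AK4. It had 2230 and 166 counts, or 29 and 19.1 TPM, and a log2 ratio of -0.26 (interval -0.50 to -0.03). There were 0.942 counts of EIF2AK4 for each count of GCN1 in the control and 0.602 in the tRF-3004b library, a log2 difference of -0.65 (interval -1.03 to -0.27). GCN1, at 8681 bases, lies in the longest bin of genes, and less the median of that bin its log2 ratio was 0.18 (interval -0.06 to 0.41), so its direction turned.

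EIF2AK1, the haem-regulated kinase (chromosome 7, 6022247 to 6059175), was the most abundant kinase in both libraries, with 124 TPM in the control and 82.6 TPM in the tRF-3004b library. Its counts were 4779 and 360, and its log2 ratio of -0.24 (interval -0.40 to -0.09) equalled the median of its length bin, also -0.24. Exons of AIMP2 on the opposite strand overlap EIF2AK1 over 532 bases, and AIMP2 had a log2 ratio of 1.38. EIF2AK3, the kinase of the endoplasmic reticulum (chromosome 2, 88556741 to 88628145), was the least abundant kinase, with 602 and 40 counts, or 16.2 and 9.61 TPM. Its log2 ratio was -0.42 (interval -0.92 to 0.04), and -0.18 less its length bin. Scaled by total counts the interval, -0.97 to -0.01, lay just below 0, so at this depth whether the interval held 0 depended on the scaling. The ratio itself was below 0 with every scaling and unit used.

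EIF2AK2, the kinase activated by double-stranded RNA (chromosome 2, 37099210 to 37156980), was counted 2963 times in the control and 215 times with tRF-3004b. The log2 ratio was -0.30 (interval -0.50 to -0.10). Less its length bin it was 0.14 (interval -0.06 to 0.34), so its direction turned. In TPM the level was 36.1 and 33.2, the smallest relative drop of the 4 kinases. EIF2AK2 was less abundant per length than EIF2AK4 in the control and more abundant in the tRF-3004b library, with 0.834 and 1.82 TPM of EIF2AK2 for each TPM of EIF2AK4. In counts EIF2AK2 was above EIF2AK4 in both libraries, with ratios of 1.41 and 2.15. The TPM of EIF2AK2 depends on how its counts were assigned to isoforms of unlike length. So does the mean length of 8965 bases that set its length bin, and with it the value of 0.14.

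The isoforms of EIF2AK2 differed between the libraries. The RefSeq isoform of 9975 bases held 95.4% of the gene's counts in the control library (interval 94.6% to 96.1%, exact Clopper-Pearson) and 69.2% in the tRF-3004b library (interval 62.7% to 75.4%). The isoform of 3697 bases, whose paired coding sequence is 123 bases shorter, held 3.66% (interval 3.03% to 4.42%) and 30.8% (interval 24.6% to 37.3%). That isoform stood at 3.39 TPM in the control and 18.3 TPM in the tRF-3004b library, while the isoform of 9975 bases stood at 31.9 and 14.9 TPM. The third isoform, of 4361 bases, had 28.7 counts and 0 counts, and 0 of 215 counts allows a share of up to 1.4%. The estimated counts share reads among isoforms with common sequence, and these intervals do not cover that step. The shift to the shorter isoform has the direction of the length trend over all genes. Genes of 3281 to 3908 bases had a median log2 ratio of -0.15, and genes of 7438 bases or more -0.44. The part of that trend in the isoform shares was not tested. EIF2AK2 also shares 31-base words with 2119 other genes, over 2.99% of the words searched. These came from paired GENCODE transcripts of at most 4343 bases, so much of the isoform of 9975 bases was not searched.

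Isoforms of other members moved less in size. For EIF2AK1 the isoform of 4462 bases held 10.5% of the counts in the control library (interval 9.63% to 11.4%) and 22.7% in the tRF-3004b library (interval 18.5% to 27.5%). For EIF2AK3 the isoform of 4233 bases held 86.2% of the counts in the control library (interval 83.2% to 88.9%) and all 40 counts in the tRF-3004b library. Its paired coding sequence is 453 bases shorter than that of the isoform of 4536 bases, for which 0 of 40 counts allows a share of up to 7.5%. For EIF2S2 the isoform of 2499 bases held 2.66% and 5.89%. The other 6 genes had 1 isoform each in the tables.

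**Figure D2:**
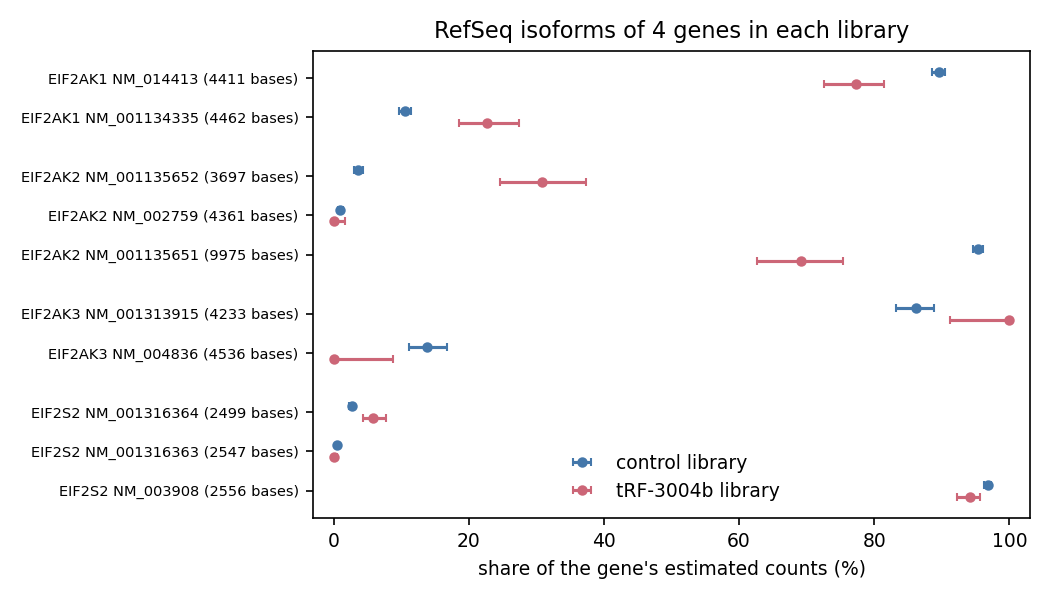
Share of each RefSeq isoform in the estimated counts of its gene, in percent, for the 4 genes with more than 1 isoform (EIF2AK1, EIF2AK2, EIF2AK3 and EIF2S2). Points are single libraries and bars are exact binomial 95% intervals of the rounded counts. The 3697-base isoform of EIF2AK2 sits at 3.66% in the control and 30.8% in the tRF-3004b library.

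The phosphatase regulators were unequal in abundance in both libraries. PPP1R15B, the constitutive regulator (chromosome 1, 204395826 to 204411817), made up 93% of the summed TPM of both genes in the control and 89.3% in the tRF-3004b library. It had 3096 and 228 counts, or 66.9 and 43.7 TPM, and a log2 ratio of -0.27 (interval -0.48 to -0.08). Less its length bin the log2 ratio was 0.05 (interval -0.15 to 0.24), so its direction turned. PPP1R15A, the regulator induced by ATF4 and CHOP (chromosome 19, 48872421 to 48876058), had 102 and 12 counts, or 5.01 and 5.22 TPM. Its log2 ratio of 0.40 (0.37 less its length bin) had an interval from -0.60 to 1.27, so its direction was not resolved at this depth.

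The composite element bound by ATF4 with C/EBP factors, searched as TGATGNAA on both strands, was found in 3.62% of 35116 RefSeq promoters (GRCh38.p14, 250 bases before to 50 after the start). Of the 8 member genes with a promoter in that table, PPP1R15B alone held it, 227 bases before the start, and no promoter of the 32 searched genes of the pathway lists below held it. The 40 bases around it are shown since PPP1R15B is the phosphatase regulator not known for stress induction, with the element in capitals:
PPP1R15B promoter, chr1:204412021-204412060, - strand: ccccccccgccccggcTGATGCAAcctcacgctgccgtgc

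The order of the levels per length changed at a few places. In the control library it ran EIF2S3, EIF2S2, EIF2AK1, EIF2S1, PPP1R15B, EIF2AK4, EIF2AK2, GCN1, EIF2AK3 and PPP1R15A, and no neighbours in that order had overlapping counting intervals. In the tRF-3004b library EIF2S2 came before EIF2S3, EIF2S1 before EIF2AK1, and EIF2AK2 before GCN1 and EIF2AK4. There the intervals of GCN1 (16.3 to 22.3 TPM) and EIF2AK4 (14.8 to 22.2 TPM) overlapped, as did those of EIF2AK3 (6.87 to 13.1 TPM) and PPP1R15A (2.7 to 9.12 TPM).

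**Figure D3:**
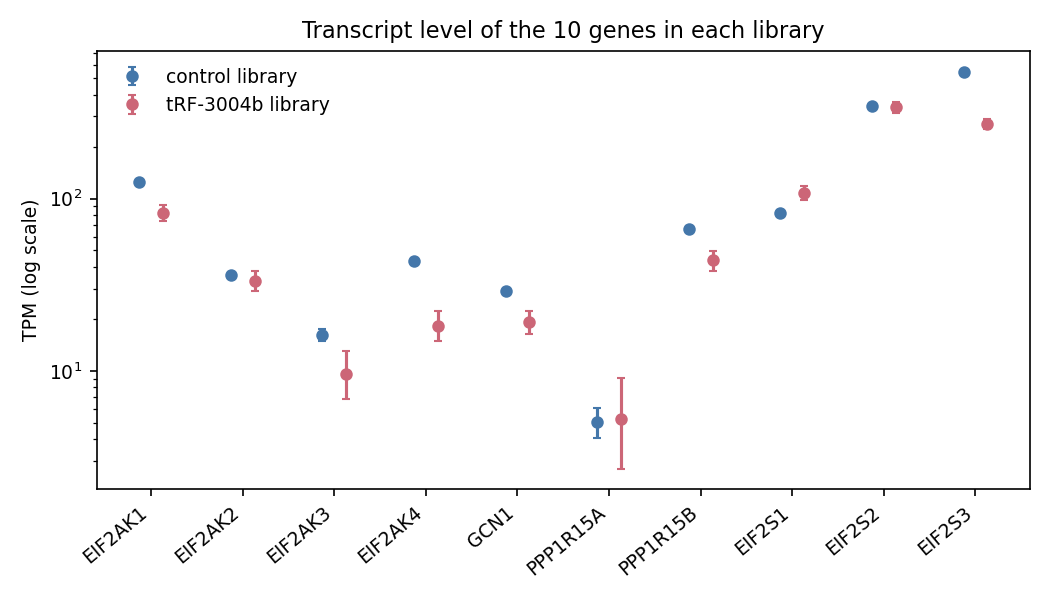
Level of the 10 genes in TPM on a log scale, with 1 point per library and the exact Poisson 95% interval of the counts, which covers counting error only. EIF2S3 is at 544 TPM in the control and 271 TPM in the tRF-3004b library, and EIF2S1 is at 82.4 and 108 TPM.

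None of the 10 genes was 2-fold lower or higher in scaled counts, beside 14.2% of all genes tested at least 2-fold lower and 12.2% at least 2-fold higher. Of the 10 genes, 7 had a log2 ratio below 0, beside 55.5% of all genes tested. The interval lay below 0 for 6 genes (28.6% of all genes tested), above 0 for 2 genes (23.3%), and held 0 for EIF2AK3 and PPP1R15A. With total counts, 7 intervals lay below 0. Counts of the 10 genes ran from 102 to 16263 in the control library, whereas the median of all genes tested had 433 counts in the control and 34 in the tRF-3004b library. The median log2 ratio of the 10 genes was -0.27, beside -0.11 for all genes tested. Less the length bins that median turned to 0.10, with 4 of the 10 genes lower and 6 higher. In gene TPM with 1 added, 2 of the 10 were at least 2-fold lower (17.7% of all genes tested). These were EIF2AK4 at -1.20 and EIF2S3 at -1.00 in TPM. That unit moved the median of all genes by -0.28, to -0.38. Relative to the all-gene median of each unit, EIF2AK4 was at -0.80 in scaled counts and -0.82 in TPM, EIF2S3 at -0.56 and -0.62, EIF2S1 at 0.84 and 0.77, and EIF2S2 at 0.42 and 0.36. EIF2AK2 alone among the 10 changed side, from -0.19 to 0.27, and its TPM depends on the assignment of counts to isoforms.

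**Figure D4:**
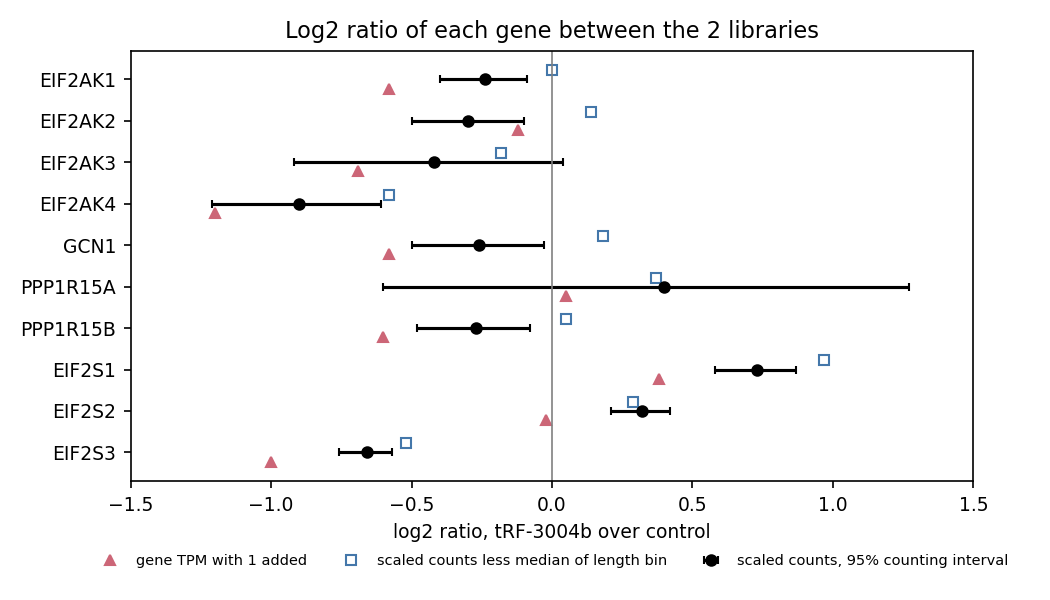
Log2 ratio of tRF-3004b over control for each gene, from scaled counts with the exact 95% counting interval (circles), from gene TPM with 1 added (triangles), and from scaled counts less the median of genes in the same bin of transcript length (squares). EIF2AK4 and EIF2S3 lie below 0 and EIF2S1 above 0 in all 3 forms, whereas EIF2AK2, GCN1, PPP1R15B and EIF2S2 cross 0 in one of them.

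The exchange factor eIF2B is the target of phosphorylated eIF2. All 5 of its subunit genes were higher in the tRF-3004b library, beside 44.5% of all genes tested. Each had an interval above 0 (23.3% of all genes tested), and their ratios were above 0 with every scaling and unit used. The median log2 ratio was 0.71, or 0.34 in TPM and 0.47 less the length bins. EIF2B3, with 1010 and 150 counts, was at 0.74 (interval 0.48 to 0.99), EIF2B4 at 0.73 (interval 0.33 to 1.12) and EIF2B2 at 0.71 (interval 0.26 to 1.15). EIF2B5, which holds the catalytic centre, was at 0.50 (interval 0.09 to 0.90), and EIF2B1, with 2150 and 267 counts, at 0.48 (interval 0.29 to 0.66). The 5 ratios spanned 0.26 on the log2 scale and their intervals overlapped, whereas the 3 eIF2 subunits spanned 1.39. EIF2B2, EIF2B4 and EIF2B5 had only 50, 63 and 59 counts in the tRF-3004b library, which widens their intervals. EIF2S1, EIF2S2 and EIF2S3 had 440, 832 and 914 there. Less the length bins the spans were 0.50 and 1.48.

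Of 13 assembly and initiation partners of eIF2, 8 had an interval above 0 (23.3% of all genes tested) and 3 below (28.6%). Their median log2 ratio was 0.42, or 0.08 in TPM and 0.55 less the length bins. EIF5B, the GTPase that joins the ribosomal subunits, was the highest at 1.44 (3992 and 964 counts), followed in scaled counts by METAP2, a methionine aminopeptidase that binds eIF2, at 0.90. EIF1, which guards start codon choice, was the lowest at -0.96 (15989 and 734 counts), followed in scaled counts by EIF2D, which can deliver initiator tRNA without eIF2, at -0.48. Less the length bins, EIF1B at -0.90 lay below EIF2D at -0.55. CDC123, the factor that assembles eIF2 from its subunits, was at 0.42 (interval 0.29 to 0.55), and at 0.16 less its length bin.

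Genes whose products act on the kinases went both ways. Of 13 genes, 5 had an interval below 0 (28.6% of all genes tested) and 3 above (23.3%). Their median log2 ratio was -0.03, or -0.38 in TPM, and -0.33 less the length bins, where 9 of the 13 were lower. In scaled counts the lowest were DELE1, which carries mitochondrial stress to EIF2AK1, at -1.33 (483 and 17 counts, interval -2.13 to -0.65), and IMPACT, an inhibitor of EIF2AK4 that competes for GCN1, at -1.16 (5207 and 208 counts, interval -1.36 to -0.96). IMPACT and EIF2AK4 were thus both lower while GCN1 stood at -0.26. The highest in scaled counts were TARBP2, an inhibitor of EIF2AK2, at 1.28 (96 and 21 counts, interval 0.54 to 1.99), and the protease OMA1, which cleaves DELE1, at 0.64 (interval 0.39 to 0.89). Of the 3 catalytic subunits of protein phosphatase 1, 1 had an interval above 0 (23.3% of all genes tested). PPP1CA was at 0.43 (interval 0.12 to 0.73), PPP1CC at 0.07 (interval -0.01 to 0.15) and PPP1CB at -0.03 (interval -0.13 to 0.06). In TPM, PPP1CA was at 0.09, PPP1CC at -0.27 and PPP1CB at -0.38, and less the length bins at 0.17, 0.04 and 0.29.

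**Figure D5:**
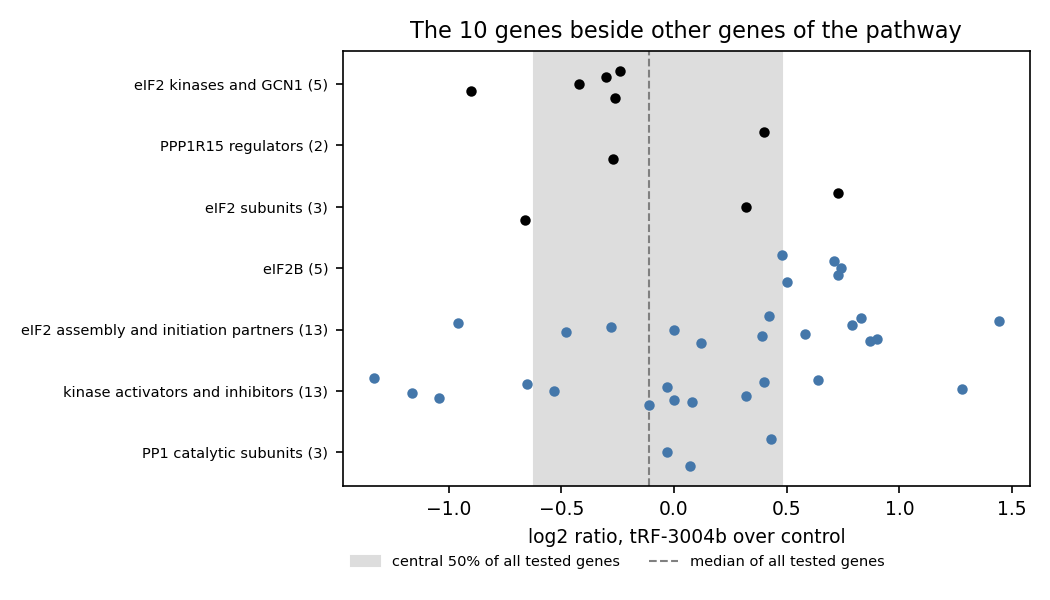
Log2 ratio of tRF-3004b over control for the 10 genes (black) and for the 4 pathway lists (blue), 1 point per gene, with the central 50% of all genes tested shaded (-0.62 to 0.48) and their median dashed (-0.11). The 5 eIF2B genes lie between 0.48 and 0.74, and the 3 eIF2 genes between -0.66 and 0.73.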

How the data were processed

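Poly-A RNA of 2 HEK293T libraries was analysed, 1 per group, grouped by sample title. The submitters' processing notes name kallisto 0.46.1 and GRCh38 as used by the authors. Of the annotation release, trimming and strand setting the sources used here give nothing. Per the file headers, the authors deposited an estimated count and a TPM value for each of 70866 RefSeq transcripts, with their lengths. Both were summed per gene symbol with a RefSeq gene table (70245 transcripts) or GENCODE 29 (309 transcripts). The 312 unnamed transcripts held 0.0608% of control counts and 0.0617% of tRF-3004b counts and were dropped.

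Gene counts were rounded and scaled with TMM factors of edgeR 4.0.16 (R 4.3.3). No test was run, with 1 library per group. The log2 ratio has 0.5 counts added at a common library size, and its 95% interval (exact Clopper-Pearson, conditional on the summed count) leaves them out. TPM intervals scale the exact Poisson interval of the counts. No molecular identifiers are described, so reads need not be independent molecules, and intervals and limits cover only counting error. The genes tested were the 13752 whose mean CPM reached 1. Computations were checked on simulated data. Shared sequence was searched as 31-base words in GENCODE transcripts, with the words of each member taken from its paired GENCODE transcripts. The alternatives used total counts, DESeq2 1.42.0 size factors, TPM, 5 added counts, 10 length bins and other count filters.

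The members and the lists were chosen with earlier results of these data known. All members, all eIF2B and phosphatase genes and the 2 highest and 2 lowest genes of the longer lists are named. CDC123 and EIF1B were added after their values were seen. Genes of like pattern were not ranked, since 2 libraries give 1 ratio per gene.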

Additional observations from a re-analysis of the deposited data

How the results depend on the processing

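No paired analysis was possible because each group has 1 library and no test was run. Of 50 alternative values of the 10 log2 ratios, 37 stayed within the counting interval of the reported value, 9 lay outside it and 4 changed sign. Total counts, DESeq2 size factors and 5 added counts moved none of them out. With gene TPM and 1 added, the ratios outside were -0.58 for EIF2AK1, -0.58 for GCN1, -0.60 for PPP1R15B, 0.38 for EIF2S1 and -1.00 for EIF2S3, and EIF2S2 turned to -0.02. In that unit 2 of the 10 genes were at least 2-fold lower in place of 0, beside 17.7% of all genes tested. At least 2-fold higher in TPM were 4.94% of all genes. Of the genes past 2-fold, 46.1% were higher in scaled counts, 21.8% in TPM and 39.6% at a mean CPM of at least 5. Less the median of the length bin, EIF2AK2 turned to 0.14, GCN1 to 0.18 and PPP1R15B to 0.05, EIF2AK1 moved to -0.00, EIF2AK4 to -0.58, EIF2S1 to 0.97 and EIF2S3 to -0.52, and 2 of the 10 intervals lay below 0 in place of 6. A mean CPM of at least 5 gave 6.87% of all genes at least 2-fold higher, and a filter of 1 count gave 25.9% at least 2-fold lower. As shares of gene TPM, the EIF2AK2 isoform of 9975 bases held 88.5% in the control and 44.9% in the tRF-3004b library, that of 3697 bases 9.4% and 55.1%, and that of 4361 bases 2.09% in the control. The causes were not tested. Depth limits PPP1R15A and EIF2AK3 the most, with 12 and 40 counts in the tRF-3004b library.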
